A study of Mus musculus with 401 samples.

Results

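Immediate early genes are described here in cumulus cells and, for contrast, in oocytes of the same complexes. The 10 members are Fos, Fosb, Jun, Junb, Egr1, Ier2, Atf3, Nr4a1, Zfp36 and Sik1, and all 10 were found by their Ensembl identifiers among the 41092 genes counted in the first set of samples and the 42349 in the second. They were selected on results of these data, since they were known to be lower in cumulus cells of the middle and old groups than of the young group of the first set. Their levels in the young, middle and old groups are therefore given as a description. RamDA-seq, which copies total RNA along whole transcripts, was applied to single oocytes at the germinal vesicle stage and to the pool of cumulus cells taken from around each oocyte, in female B6D2F1 mice, the first-generation cross of C57BL/6 and DBA/2. The first set held hyperovulated young mice (2 months of age), middle mice (9 months) and old mice (14 months), all fed ad libitum, and CR mice (9 months) under calorie restriction begun in adult life. The second set held hyperovulated mice fed ad libitum at 2, 4, 9 and 14 months and mice at 2 months that were not hyperovulated. Hyperovulation, an injection that makes more follicles grow, used either of a pair of agents, and the labels do not say which agent each mouse received. The complexes were collected into medium with IBMX, which blocks the breakdown of cyclic AMP and so holds oocytes in meiotic arrest. This medium was shared by all groups.

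Immediate early genes are switched on within minutes of a signal, from transcription factors that already wait in the cell, and need no new protein. Kinase cascades act on them through serum response factor, and cyclic AMP acts on them through CREB. Their transcripts are short-lived, so their levels follow the last stimulus, which can be a hormone, a growth factor, heat or the handling of cells. Fos, Fosb, Jun, Junb and Atf3 encode members of the AP-1 and ATF families, which bind DNA in pairs. Egr1 encodes a zinc finger transcription factor and Nr4a1 an orphan nuclear receptor. Ier2 encodes a small nuclear protein. Zfp36 (tristetraprolin) speeds the decay of mRNAs with AU-rich elements, and Sik1 is a kinase that restrains the co-activators of CREB, so both act as brakes. In the ovary, gonadotropins act on granulosa and cumulus cells through cyclic AMP, and Egr1 and Nr4a1 are known to respond to luteinizing hormone there.

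The promoters are shown because the members were measured together and differ in these letters. RefSeq promoter sequences (GRCm38.p6) were matched to 7 of the 10 members, and not to Egr1, Ier2 and Sik1. The 250 bases before the start of transcription are printed for 4 of them, 5′ to 3′ on the strand of the gene. Capitals mark 3 motifs. The first is TGACG, on either strand, the core of a cyclic AMP response element, which CREB binds. The second is the TATA box, and the third is the CArG box, which serum response factor binds. The windows lie at chr12:85473640-85473889 on the plus strand (Fos), chr15:101266596-101266845 on the plus strand (Nr4a1), chr8:84978749-84978998 on the minus strand (Junb) and chr7:28379229-28379478 on the minus strand (Zfp36).
Fos: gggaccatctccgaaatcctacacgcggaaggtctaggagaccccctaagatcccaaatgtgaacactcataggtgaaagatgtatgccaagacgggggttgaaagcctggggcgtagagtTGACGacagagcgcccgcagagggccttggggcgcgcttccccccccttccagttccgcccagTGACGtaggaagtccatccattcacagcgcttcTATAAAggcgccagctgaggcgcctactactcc
Nr4a1: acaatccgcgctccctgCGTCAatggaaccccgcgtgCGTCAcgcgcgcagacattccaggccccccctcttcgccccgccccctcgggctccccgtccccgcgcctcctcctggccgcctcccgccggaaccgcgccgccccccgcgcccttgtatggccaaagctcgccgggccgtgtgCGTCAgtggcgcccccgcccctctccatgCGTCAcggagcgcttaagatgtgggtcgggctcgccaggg
Junb: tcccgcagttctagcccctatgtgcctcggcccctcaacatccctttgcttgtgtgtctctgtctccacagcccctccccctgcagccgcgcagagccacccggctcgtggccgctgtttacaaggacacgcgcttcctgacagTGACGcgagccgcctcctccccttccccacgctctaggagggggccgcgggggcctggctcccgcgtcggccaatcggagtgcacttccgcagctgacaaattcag
Zfp36: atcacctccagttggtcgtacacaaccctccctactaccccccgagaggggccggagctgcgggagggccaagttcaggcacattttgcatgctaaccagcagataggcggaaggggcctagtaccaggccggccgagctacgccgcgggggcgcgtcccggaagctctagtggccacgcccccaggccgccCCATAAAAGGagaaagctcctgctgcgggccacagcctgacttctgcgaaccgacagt
Searched on both strands, TGACG was present in 5 of these 7 windows, with 4 copies in Nr4a1, 2 in Fos and 1 each in Junb, Fosb and Atf3, against 17.8% of 32851 promoter windows of the same length. Its first base lay at -129 and -66 in Fos, at -106 in Junb and at -233, -213, -69 and -40 in Nr4a1, counted back from the start. The full element TGACGTCA was present in 0 of 7 windows and in 1.55% of all. An AP-1 site written TGANTCA was also present in 0 of 7, against 6.75% of all. The EGR site GCGNGGGCG was found in 3 of 7 (Fosb, Zfp36 and Nr4a1) and in 4.70% of all. TATAAA was found in Fos alone at -33, against 12.4% of all promoters, and the CArG box in Zfp36 alone at -58, against 1.47%. No site of these motifs overlapped another in the 7 windows. Sites more than 250 bases before the start were not searched, so a motif absent here can still lie further upstream. These matches describe letters and were not compared with binding data.

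Levels are given as CPM, each library's counts scaled to a common total by the TMM method, and per kilobase where genes are compared with each other. In the first set 71 cumulus libraries were used (15 young, 15 middle, 16 old and 25 CR), from 848243 to 2501005 counts, and the CR libraries were the deepest. In the second set 128 were used, from 510029 to 1147286 counts, with 24 libraries at 2 months, 40 at 4, 16 at 9, 16 at 14 and 32 without hyperovulation. The complexes came from 11 mouse labels in the first set, 1 of which joins 2 old mice, and from 30 mice in the second. Several complexes came from each mouse, so p-values over libraries treat complexes of the same mouse as independent, and results on counts summed per mouse stand beside them. A library pools cells, so fewer cells with a transcript cannot be told apart from less transcript per cell. The complex of the mouse Middle3 whose oocyte library had cumulus cell transcripts in place of oocyte ones was left out. The 10 cumulus and granulosa markers summed to a median of 14866 CPM in young and 14706 CPM in 2-month cumulus libraries, and the 13 oocyte markers to 19.3 and 15.3 CPM.

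Fos was the most abundant member in every cumulus group per kilobase of transcript. Its median level in young cumulus cells was 1492 CPM per kilobase, which ranked 28th of 38377 genes with a known length. In the 2-month group it was 955 CPM per kilobase and ranked 38th of 39468. Egr1 (427 in young and 386 at 2 months), Jun (326 and 244) and Fosb (305 and 217 CPM per kilobase) followed in that order in both groups. Ier2, Nr4a1 and Zfp36 lay lower, from 56.5 to 137 CPM per kilobase, then Junb and Sik1, and Atf3 was last at 16.04 and 19.5. The CPM of the 10 members, scaled by TMM, summed to a median of 0.895% of the scaled total in young cumulus libraries, 0.148% in middle, 0.369% in old and 0.480% in CR. In the second set the medians were 0.688% at 2 months, 0.794% at 4, 0.385% at 9, 0.605% at 14 and 0.780% without hyperovulation. In both sets the group of 9-month mice fed ad libitum had the lowest median, which in the first set the choice of members favoured.

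**Figure D1:**
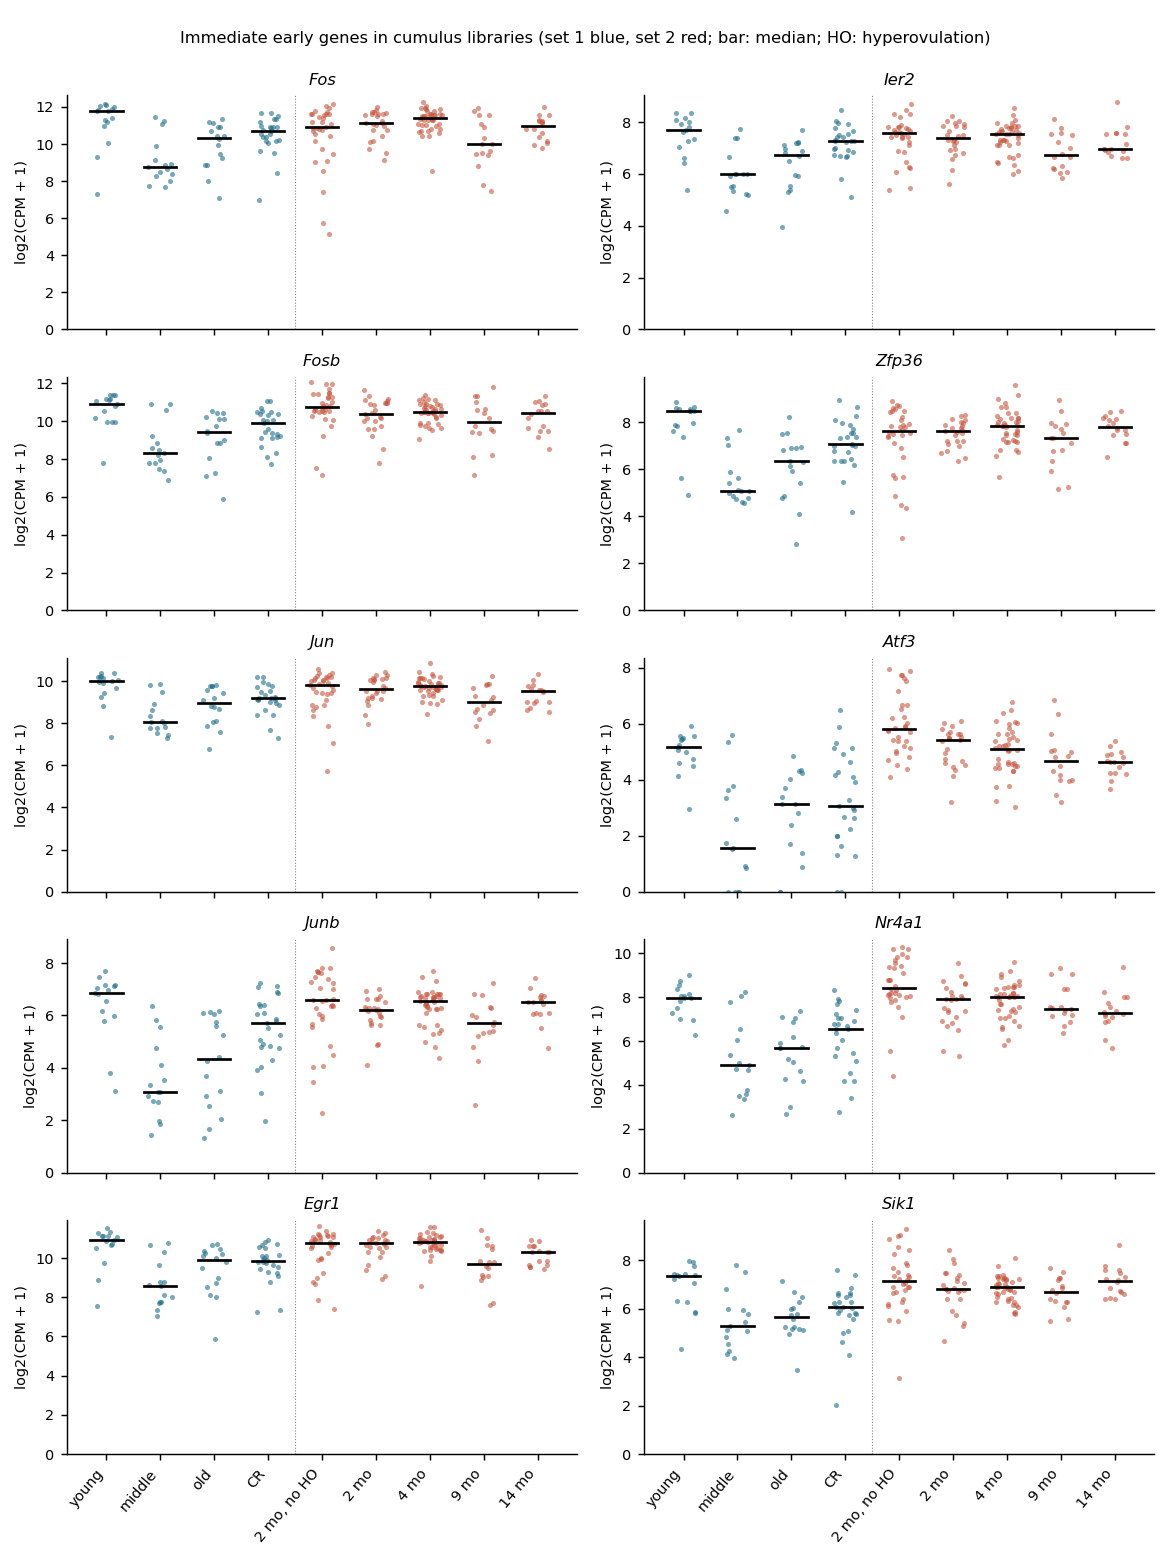
Levels of the 10 immediate early genes in cumulus cells by group, as log2(CPM + 1); each point is 1 library and each bar the group median. Every group spans a wide range for each gene, and Fos medians run from 441 CPM in middle to 3510 CPM in young cumulus cells.

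In the first set, Fos (ENSMUSG00000021250, chr12:85473890-85477273 of GRCm38, plus strand) was at 159 to 4548 CPM, median 3510, in young cumulus cells. In middle cumulus cells it was at 201 to 2799 CPM, median 441. Old cumulus cells had 137 to 2655 CPM, median 1291, and CR cumulus cells had 126 to 3283 CPM, median 1655. The ranges of all 4 groups overlapped, and a young library was as low as 159 CPM while the highest middle library reached 2799. Mouse means of Fos were 3954 CPM in Young1 and 2609 in Young2. Among middle mice they were 1469 CPM in Middle1, 477 in Middle2 and 359 in Middle4. Middle3 kept only 1 library, at 2162 CPM. The middle group thus held 2 mice with low and 2 with higher levels, Middle3 by that library alone. The old labels gave 1139 (Old1_2) and 1562 CPM (Old3).

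The other AP-1 and ATF members also had their highest median in young and their lowest in middle cumulus cells. Fosb (chr7:19302696-19310051), a partner of Jun proteins like Fos, was at 218 to 2706 CPM, median 1905, in young and 119.9 to 1914 CPM, median 323, in middle cumulus cells. Jun (chr4:95049034-95052222), the founding partner of Fos, was at 159.6 to 1325 CPM, median 1038, in young and 156 to 921 CPM, median 261, in middle. Jun had the narrowest fold range of these in the middle group, and its young and middle ranges overlapped like those of Fosb. Junb (chr8:84974484-84978718), which pairs with Fos but is the weaker activator, was at 7.60 to 208 CPM, median 116, in young, 1.75 to 80.9 CPM, median 7.48, in middle and 1.53 to 71.2 CPM, median 19.2, in old. Atf3 (chr1:191170296-191218039), a stress-induced repressor, was at 6.84 to 59.6 CPM, median 34.6, in young, 0 to 46.9 CPM, median 1.98, in middle and 0 to 27.9 CPM, median 7.74, in old. Atf3 was the member closest to the detection limit, with 0 counts in 4 of 15 middle, 2 of 16 old and 2 of 25 CR libraries, and in no other group. In the file, 43.7% of the nonzero Jun counts and 43.2% of the Junb counts of the first set were not whole, since reads shared with other places were split, so levels of both carry that uncertainty.

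Egr1 (ENSMUSG00000038418) was at 187 to 2915 CPM, median 1913, in young, 129 to 1766 CPM, median 382, in middle and 58.05 to 1658 CPM, median 963, in old cumulus cells. Nr4a1 (chr15:101254269-101274795) was at 75.98 to 516 CPM, median 248, in young, 5.26 to 296 CPM, median 29.2, in middle and 5.505 to 166 CPM, median 50.1, in old. For Nr4a1 the mouse means separated the groups less evenly. They were 159 CPM in Middle1 and 296 in Middle3 (1 library), against 23.4 in Middle2 and 14.7 in Middle4. Ier2 (chr8:84661331-84662852) was at 41.03 to 327 CPM, median 208, in young and 22.7 to 211 CPM, median 62.7, in middle. Zfp36 (chr7:28376784-28380253) was at 28.9 to 461 CPM, median 355, in young and 22.8 to 204 CPM, median 33.4, in middle, and Sik1 (chr17:31844250-31855804) at 18.995 to 253 CPM, median 163, in young and 14.6 to 219.6 CPM, median 38.5, in middle. Zfp36 and Sik1, the brakes among the members, were highest in young like the activators, which the choice of members fixed against middle and old.

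Fold changes of the contrasts that chose the members are given as a description, with no p for any member, and nothing is read from the counts of calls in these contrasts, which the choice of members fixed. Relative to young, the members' log2 fold changes in middle cumulus cells ran from -2.48 to -1.17 with a median of -1.70, against a median of 0.04 over all genes fitted. Junb had the largest fall and Sik1 the smallest. At a false discovery rate of 5% in edgeR's quasi-likelihood test, 9 of 10 were lower in middle, where 0.808% of all genes were. Relative to young, log2 fold changes in old cumulus cells ran from -2.06 (Nr4a1) to -0.82 (Jun) with a median of -1.27, and 7 of 10 were lower, where 2.19% of all genes were. Between middle and old, 8 of 10 log2 fold changes were above 0 with a median of 0.41. There edgeR called 0 of 10, with 0 at an unadjusted p under 0.05 and 0 by DESeq2, and it called 0.0433% of all genes. Beside these contrasts, 1 of 5 luteal markers was higher in middle than in young (median log2 fold change 1.45) and 2 of 5 were higher in old (0.64). Their summed level ran from 71.8 to 473 CPM in young, 74.8 to 1148 in middle and 94.97 to 859.8 in old. Of the oocyte markers, 0 of 8 passed in middle (median -1.58) and 1 of 12 was lower in old (-1.49). The part of these markers in the levels was not tested.

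The second set repeated the ages in other mice and was not used to choose the members. Of the 10 members, 0 passed the test between 2 and 4 months, 0 between 2 and 9 months, 1 between 2 and 14 months (Atf3, lower at 14 months), 1 between 4 and 14 months (Egr1, lower at 14 months) and 0 between 9 and 14 months. The groups at 2 and 4 months had the highest medians of Fos and Egr1 among hyperovulated mice, and the group at 9 months the lowest. Fos was at 558 to 4045 CPM, median 2246, at 2 months, 366 to 4945 CPM, median 2708, at 4 months, 173 to 3877 CPM, median 1019, at 9 months and 871 to 4099.9 CPM, median 2020.5, at 14 months. All 4 ranges overlapped. Mean Fos levels per mouse ran from 1517 to 3015 CPM over 5 mice at 2 months, 1941 to 3425 over 8 mice at 4 months, 589 to 2144 over 4 mice at 9 months and 1548 to 2949 over 5 mice at 14 months.

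Median levels of the other members were lowest at 9 months as well, except Atf3 and Nr4a1, which were lowest at 14 months. At 2, 4, 9 and 14 months the median of Egr1 was 1732, 1830.4, 821 and 1277 CPM, that of Jun 777, 858, 509.8 and 734, and that of Fosb 1354, 1458, 1013 and 1396. Junb had medians of 73.8, 91.7, 50.8 and 90.1 CPM, and Ier2 of 168, 185, 105 and 123. For Nr4a1 they were 236, 254, 177 and 153 CPM, and for Atf3 42.1, 33.7, 24.5 and 24.1. The brakes Zfp36 (196, 232, 160.2 and 223 CPM) and Sik1 (112, 116, 103 and 141 CPM) had their highest medians at 4 and 14 months.

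Between 2 and 9 months the largest estimate was that of Egr1, at 1613 ± 590.5 CPM (SD, n = 24) and 1010.1 ± 713 CPM (SD, n = 16). Its log2 fold change was -0.67 ± 0.24 (SE), with a 95% interval of -1.15 to -0.20 and an adjusted p of 0.129 over all genes (edgeR's quasi-likelihood test with Benjamini-Hochberg adjustment, used throughout). Fos had -0.60 ± 0.28 (interval -1.17 to -0.03), Jun -0.53 ± 0.20 and Ier2 -0.43 ± 0.19. These 4 had an unadjusted p under 0.05, none passed after adjustment, DESeq2 called 0, and edgeR called 1.92% of all genes. Nr4a1 and Zfp36 differed by 0.03 (interval -0.52 to 0.57) and -0.10 (interval -0.54 to 0.34). The median over the 10 members was -0.25, against 0.04 over all genes. Without the mouse 9mo22, 2 members passed. Luteal markers moved with this comparison: 4 of 5 were higher at 9 months (0 per mouse). Their summed level ran from 53.7 to 499.5 CPM at 2 months and from 51.8 to 2781 at 9 months, and their part in the result was not tested.

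Atf3 fell between 2 and 14 months. It was at 8.23 to 68.3 CPM, median 42.1, at 2 months and 11.8 to 40.8 CPM, median 24.1, at 14 months, so the ranges overlapped. The log2 fold change was -0.66 ± 0.18 (SE; interval -1.03 to -0.29; adjusted p = 0.0496 by edgeR), in a comparison that called 1.70% of all genes. On counts summed per mouse the adjusted p was 0.199, and 0.131% of all genes passed. Egr1 had -0.40 ± 0.17 (adjusted p = 0.238 by edgeR). The other 8 had intervals that included 0, from -0.32 (Nr4a1) to 0.32 (Junb), and 3 of 10 members were above 0. For Fos the interval was -0.58 to 0.24 and for Jun -0.57 to 0.10. In this comparison 1 of 5 luteal, 1 of 3 theca and 1 of 6 leukocyte markers were higher and 2 of 10 cumulus and granulosa markers lower, and their part in the result was not tested. The call of Atf3 was lost without any of the mice 2mo1, 2mo2, 2mo34, 14mo37, 14mo39, 14mo40 and 14mo41, with estimates from -0.69 to -0.58.

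Egr1 fell between 4 and 14 months, from 1818 ± 518 CPM (SD, n = 40) to 1205 ± 411 CPM (SD, n = 16). Single libraries ran from 383 to 3111 CPM at 4 months and from 705 to 1945 at 14 months, and overlapped. The log2 fold change was -0.58 ± 0.14 (SE; interval -0.85 to -0.30; adjusted p = 0.00772 by edgeR), where 4.61% of all genes were called. Summed per mouse the adjusted p was 0.0989, with 0.554% of all genes called, without the mouse 14mo41 no member passed, and without 4mo3, 4mo28 or 4mo29 2 did. Sik1 had 0.37 ± 0.15 (adjusted p = 0.158 by edgeR), in the other direction. In this comparison 2 of 5 luteal markers were higher at 14 months, 3 of 9 cumulus expansion and ovulatory response genes were higher, and of 10 cumulus and granulosa markers 2 were lower and 1 higher. Of the other cell types, 1 of 3 theca and 1 of 6 leukocyte markers were higher, and 1 leukocyte and 1 of 4 stromal markers lower. The part of these in the result was not tested. Between 2 and 4 months the members' log2 fold changes lay between -0.10 (Sik1) and 0.40 (Zfp36). There edgeR called 0 of 10 and 0.519% of all genes, 1 member (Zfp36) had an unadjusted p under 0.05, and DESeq2 called 0. Between 9 and 14 months edgeR called 0 of 10 and 0.143% of all genes, Junb (0.56 ± 0.25) and Sik1 (0.48 ± 0.20) had an unadjusted p under 0.05, and DESeq2 called 0.

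**Figure D2:**
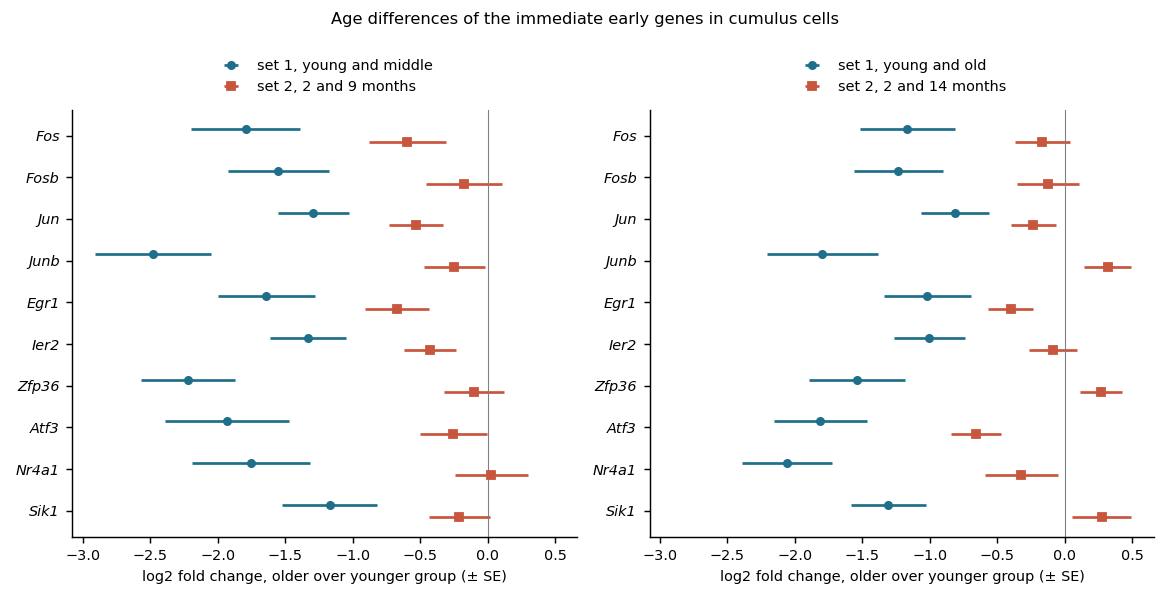
Log2 fold changes of the 10 genes in cumulus cells with age, in the first set (young to middle and young to old, estimates that chose the genes) and in the second set (2 to 9 and 2 to 14 months), with bars of ± SE. Fos from 2 to 9 months is at -1.79 (first set) and -0.60 (second set).

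The ages of young, middle and old mice were those of the 2-, 9- and 14-month groups, so the estimates of both sets can be set side by side, although they were not tested against each other. From 2 to 9 months Fos had a log2 fold change of -1.79 ± 0.40 (first set) and -0.60 ± 0.28 (second set), and Zfp36 had -2.22 ± 0.35 and -0.10 ± 0.22. From 2 to 14 months Nr4a1 had -2.06 ± 0.33 and -0.32 ± 0.27, and Junb had -1.80 ± 0.41 and 0.32 ± 0.18. The first set rests on 2 young mice and the members were chosen on it, while the second set has 5 mice at 2 months.

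CR cumulus cells had higher medians than middle ones, both at 9 months, for all 10 members. Fos was at a median of 441 CPM in middle and 1655 in CR, and Junb at 7.48 and 51.4. The middle libraries also stood in the contrasts that chose the members, so a higher level in any group set against them carries that choice. Zfp36 was at 22.8 to 204 CPM, median 33.4, in middle and 17.5 to 489 CPM, median 136, in CR, a log2 fold change of 1.49 ± 0.33 (SE; adjusted p = 0.00525 by edgeR). Ier2 was at 22.7 to 211 CPM, median 62.7, in middle and 33.96 to 356 CPM, median 154, in CR, a change of 1.014 ± 0.25 (adjusted p = 0.0121 by edgeR). Junb ran from 1.75 to 80.9 CPM in middle and from 2.91 to 149.8 in CR, a change of 1.65 ± 0.43 (adjusted p = 0.0216 by edgeR). The groups overlapped for all 3 of these. The other 7 did not pass, with estimates from 0.21 (Sik1) to 1.03 (Fos, adjusted p = 0.0765). Their medians in middle and CR were 382 and 915 CPM for Egr1, 29.2 and 93.1 for Nr4a1, and 38.5 and 65.4 for Sik1. DESeq2 called 4 members, and edgeR called 3.60% of all genes.

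These 3 calls rest on few mice. Mean Zfp36 levels were 106, 33.7, 129 and 36.7 CPM in the mice Middle1 to Middle4 and 47.1, 152 and 210.2 CPM in CR1 to CR3. The Middle3 value is that of 1 library. On counts summed per mouse edgeR called 0 members and 0% of all genes, with 0 members and 2043 genes at an unadjusted p under 0.05. The number of members called was 0 without the mouse Middle2 or CR3, 1 without Middle4, 5 without Middle3 or CR1, and 8 without Middle1. With the left-out complex of Middle3 put back it was 0, and the cumulus library of that complex had 2896 CPM of Fos, scaled to its own total. The share of all genes called with a mouse left out or this complex put back is not given here. A shift of the members alone cannot then be told apart from one of all genes. Of the heat-shock genes, which encode chaperones, 6 of 8 were also higher in CR, led by Hspa1b (1.74 ± 0.33), and their summed medians were 2684 CPM in middle and 3846 in CR. Of the markers of other cell types, 3 of 5 red blood cell, 2 of 4 theca and 1 of 5 stromal ones were lower in CR and 1 theca marker was higher. Of the oocyte markers 0 of 11 passed, but 10 had estimates above 0 (median log2 fold change 1.74), and their summed level ran from 4.36 to 38.6 CPM in middle and from 4.83 to 403 in CR, with the lower median in CR (12.9 CPM). Of the leukocyte markers 0 of 6 passed and 5 were above 0, with summed medians of 7.15 and 10.7 CPM. The luteal markers were lower in 3 of 5 and CR libraries were deeper, and the part of these in the result was not tested. Related genes that were higher in CR were Dusp1 (1.74 ± 0.35), a phosphatase that switches off MAP kinases, and Btg2 (1.35 ± 0.25), an anti-proliferative gene.

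In the comparison of hyperovulation at 2 months, Atf3 and Nr4a1 were lower in cumulus cells of hyperovulated mice than of mice without hyperovulation, while Fos, Jun and Egr1 had intervals around 0. Atf3 was at 16.01 to 248 CPM, median 55.1, without and 8.23 to 68.3 CPM, median 42.1, with hyperovulation. The log2 fold change, with over without, was -1.11 ± 0.25 (SE; adjusted p = 0.00146 by edgeR, and 0.0324 on counts summed per mouse). Nr4a1 was at 20.3 to 1231 CPM, median 341, without and 38.9 to 759 CPM, median 236, with, a change of -0.998 ± 0.27 (adjusted p = 0.00798 by edgeR, and 0.232 per mouse). The upper part of both ranges was reached without hyperovulation, and the ranges overlapped. The comparison called 13.2% of all genes over libraries and 0.952% per mouse, beside 2 of 10 and 1 of 10 members. Over libraries the share of members was near this background.

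Fos was at 33.8 to 4558 CPM, median 1916, without and 558 to 4045 CPM, median 2246, with hyperovulation, and its log2 fold change of 0.18 ± 0.27 had an interval of -0.36 to 0.72. Egr1 had 0.01 (interval -0.39 to 0.41) and Jun 0.02 (interval -0.37 to 0.40). Junb (-0.65 ± 0.26, adjusted p = 0.0826 by edgeR) and Sik1 (-0.60 ± 0.26, adjusted p = 0.128) did not pass. The group without hyperovulation held the lowest Fos library of the second set, at 33.8 CPM. In it the mice 2moNoH12 and 2moNoH13 stood apart for Fos, with means of 447 and 902 CPM where the group's mouse means ran up to 3696, but not for Atf3, with means of 69.6 and 83.2 CPM in a range of 43.9 to 137. Without these 2 mice, left out after their values were seen, 5 members were called (4 without 2moNoH12 alone), and 5 also with the B1 or B2 mark of the complex labels, described further on, as a covariate (Fosb, Junb and Sik1 besides Atf3 and Nr4a1 in the latter). The share of all genes called in these fits is not given here, so nothing is read from these counts.

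**Figure D3:**
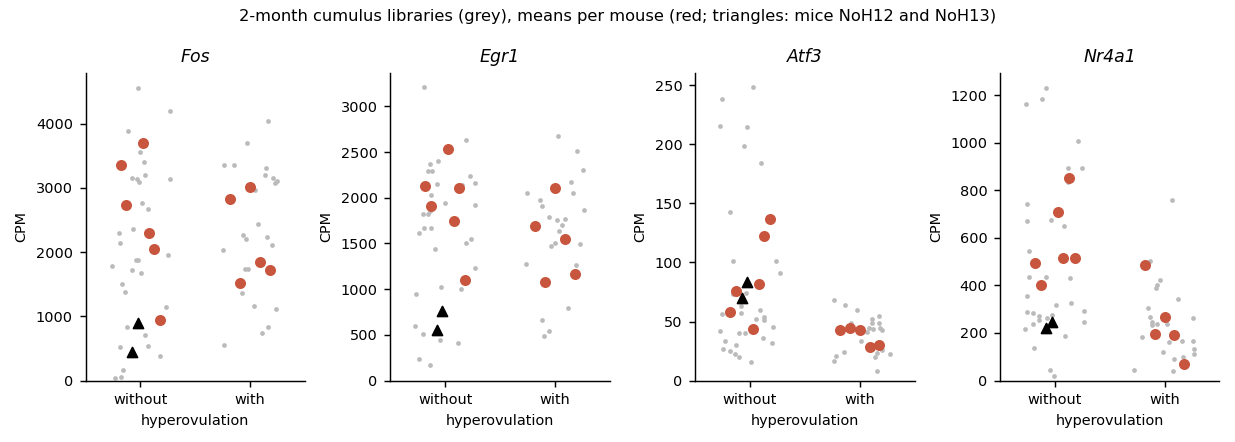
Levels of Fos, Egr1, Atf3 and Nr4a1 in cumulus cells at 2 months with (5 mice) and without (8 mice) hyperovulation, in CPM on a linear axis; grey points are libraries, red points mouse means and black triangles the means of 2moNoH12 and 2moNoH13. Atf3 and Nr4a1 sit lower with hyperovulation, while the mouse means of Fos without hyperovulation span 447 to 3696 CPM.

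Other genes of the pathway were lower with hyperovulation too, in a comparison that called 13.2% of all genes over libraries and 0.952% per mouse. Among other AP-1 and ATF/CREB factors, 7 of 9 tested were lower and none higher (2 lower on counts summed per mouse), with a median log2 fold change of -0.74. Of the other EGR and NR4A receptors and their co-repressors, 5 of 7 were lower (2 per mouse), with Nr4a3 at -3.48 ± 0.58 and Nr4a2 at -2.12 ± 0.42 (SE), both close relatives of Nr4a1. Nr4a3 had a median of 13.3 CPM without and 3.89 with hyperovulation, and Nr4a2 had 22.3 and 12.2. Of the other fast-response transcription factors 5 of 10 were lower, and 0 per mouse. Errfi1, which restrains EGF receptor signalling, was lower (-1.89 ± 0.32), and 1 of 10 feedback phosphatases and signal brakes passed, and 0 per mouse. Among RNA decay, kinase and growth brakes 4 of 10 were lower and 1 higher (Gadd45g, 0.90 ± 0.18), and per mouse 2 were lower and 1 higher. Hspa1a, a heat-shock gene (0.98 ± 0.32), and Adamts1, a protease gene of the ovulatory response (0.36 ± 0.12), were higher. Of the 8 heat-shock genes 1 was higher and 1 lower, with 4 estimates above 0. The median over all genes was -0.04. Of the cumulus and granulosa markers 4 of 10 were higher with hyperovulation and 1 lower. Their summed level ran from 5749 to 15117 CPM without and 9916 to 16810.5 with, and that of the luteal markers had medians of 87.3 and 165 CPM, although none of 5 luteal markers was called higher and 1 was lower. Of the other cell types' markers, 0 of 4 leukocyte and 0 of 3 stromal ones passed, 1 of 3 endothelial ones was higher, and of 4 theca markers 1 was higher and 1 lower, as of 6 oocyte markers. The part of these in the result was not tested.

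With age in the second set, few other genes of the pathway passed. At 14 months against 2 months, Egr2, a relative of Egr1, was lower (log2 fold change -1.08 ± 0.23), as was Zfp36l1, a relative of Zfp36 (-0.52 ± 0.14). Nr4a2 (1.24 ± 0.28) and the kinase gene Mapk8 (0.39 ± 0.11) were higher. The adjusted p by edgeR was 0.0424 for Zfp36l1 and 0.0492 for Mapk8. Over libraries 1.70% of all genes were called. On counts summed per mouse 0.131% were, and 0 genes of the lists that hold these genes. Against 4 months, Egr2 had -0.97 ± 0.23 and Nr4a2 0.91 ± 0.24 at 14 months, and per mouse 0 genes of their list passed. Of the heat-shock genes 4 of 8 were higher (0 per mouse), with Hspa1b at 1.80 ± 0.37 and Hspa1a at 1.35 ± 0.34. This comparison called 4.61% of all genes over libraries and 0.554% per mouse. Between 2 and 4 months Adamts1 was lower at 4 months (-0.49 ± 0.10), where 0.519% of all genes were called. Per mouse 0 genes of its list and 0 of all genes passed. The comparisons of 2 and of 4 with 14 months share the 14-month libraries.

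The complex labels of the second set carry B1 or B2, and each of the 30 mice fell under only 1 of these marks. They were taken as plates, which the labels do not say. Libraries marked B2 had the lower median in 5 of 5 groups for 8 members and in 4 of 5 groups for Fos and Atf3. The median ratio of B2 to B1 over the 5 groups was 0.440 for Fosb, 0.449 for Nr4a1, 0.709 for Fos and 0.812 for Egr1. The difference between the marks was not tested against the spread between mice. Within B1, the median of Nr4a1 was 659 CPM without and 264 with hyperovulation, and within B2 283 and 106. Atf3 had 51.5 and 43.8 CPM within B1 and 55.1 and 23.6 within B2, so both genes were lower with hyperovulation under each mark. For Egr1 at 4 and 14 months, the medians were 1952 and 1302 CPM within B1 and 1752 and 858 within B2. For Atf3 at 2 and 14 months they were 43.8 and 24.3 CPM within B1 and 23.6 and 23.7 within B2.

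The members varied together between complexes of the same mouse. Levels were taken as log2(CPM + 1) and centred on the mean of each mouse, and correlations are given as a description, since complexes of a mouse share that mouse and its handling. Over the 45 pairs of members the median Pearson r was 0.79 in the first set (0.67 to 0.96, 71 libraries of 11 mouse labels). Fos, Fosb, Jun, Zfp36 and Sik1 were in a hub of the gene network that the study built for aging cumulus cells. That network linked genes through their read counts, so r in the first set may carry part of the choice of members. In the second set it was 0.68 (0.45 to 0.88, 128 libraries of 30 mice). Fos and Egr1 had r of 0.94 and 0.88, and Fos and Jun 0.95 and 0.81. Fos and Nr4a1 had 0.78 and 0.50, and Fos and Atf3 0.71 and 0.45. Grouped after these values were seen, the pairs within Fos, Fosb, Jun, Junb, Egr1, Ier2 and Zfp36 had median r of 0.88 and 0.81, those within Atf3, Nr4a1 and Sik1 had 0.78 and 0.61, and the pairs between both had 0.73 and 0.57. Over all genes with a mean of at least 10 CPM, the r of a gene with the members' mean had a median of -0.03 (first set) and -0.01 (second set).

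**Figure D4:**
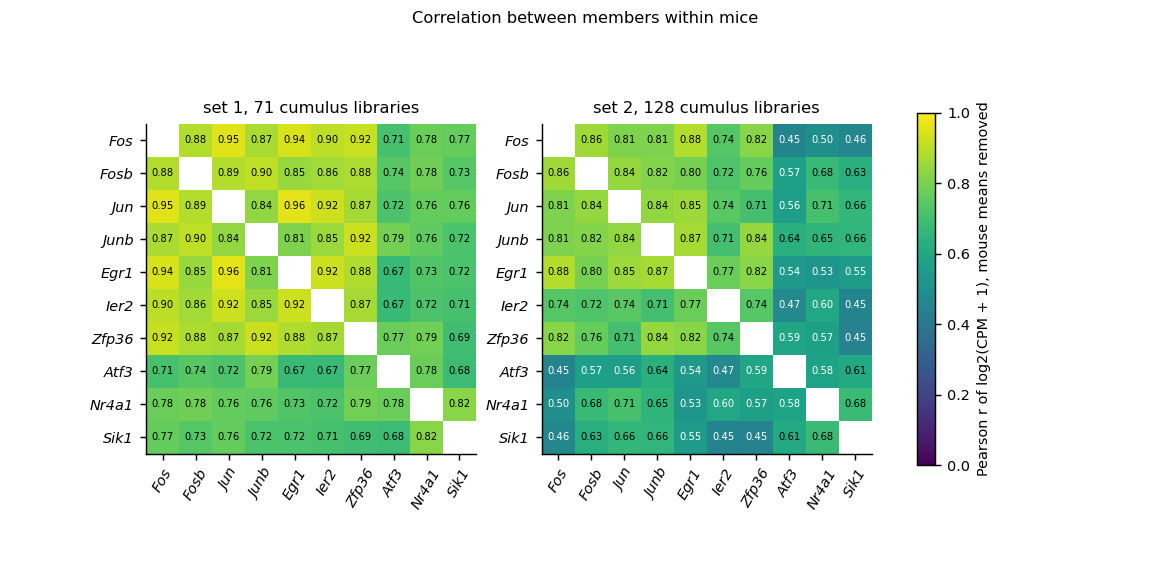
Pearson r between the members in cumulus cells within mice, in the first set (71 libraries) and the second (128 libraries), with r printed in each cell and coloured from low (dark) to high (light). All 45 pairs are positive, with lowest values of 0.67 (first set) and 0.45 (second set).

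A complex 1 SD above its mouse's mean had a Fos level 2.10 times higher in the first set and 1.85 times higher in the second. Junb was the most variable in the first set, at 2.55 times, and Ier2 the least variable in the second, at 1.37 times. After group means were removed, the share of the variance of log2 levels that lay between mice was estimated for each member. This share had a median of 27.99% over the members (first set) and 43.4% (second set). In the first set it was highest for Atf3 (61.2%) and Nr4a1 (57.96%), and in the second it was lowest for Atf3 (9.91%) and highest for Ier2 (58.6%). In the second set each mouse fell under only 1 of the marks B1 and B2, which were not removed. The share between mice there thus cannot be told apart from a difference between the marks. Within mice, the members' summed level had an r of 0.56 (first set) and 0.54 (second set) with the heat-shock genes' sum. With the cumulus and granulosa markers' sum it was -0.23 and -0.24, and with the total count 0.00 and -0.06. With the sum of the cumulus expansion genes it was 0.52 and 0.20.

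The 8 genes most like the members within mice were taken from the second set, and their r in the first set is given second. They were the transcription factors Klf4 (0.84 and 0.86) and Klf2 (0.82 and 0.89), Junos (0.81 and 0.80), the GTPase gene Rhob (0.81 and 0.89), Zfp36l2 (0.80 and 0.68), which like Zfp36 promotes mRNA decay, Socs3 (0.76 and 0.70), a brake on cytokine signalling, Gm37352 (0.75 and 0.82) and Tob2 (0.74 and 0.77). Junos lies antisense to Jun and overlaps it in part. The counting is not stated to use strand, so its reads in the shared stretch cannot be told apart from those of Jun. Of 9690 genes in the second set, 73 had an r of at least 0.5, and 142 of 9819 in the first.

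In oocytes of the same complexes, all 10 members had lower medians than in cumulus cells. In the first set the cumulus library was the higher in 56 of 70 complexes for Atf3, 63 for Junb, 66 for Sik1 and 69 for Nr4a1, and in all for the others. In the second set it was the higher in 126 of 127 for Junb and for Sik1, and in all for the others. Fos was higher in the cumulus library than in the oocyte in 70 of 70 complexes of the first set and 127 of 127 of the second, with medians of 4.30 CPM in oocytes and 2227 in cumulus cells in the second set. In that set the oocyte median, as a share of the cumulus median, was 0.193% for Fos, 0.251% for Fosb, 0.119% for Jun and 0.588% for Ier2. These 4 lay below the 0.745% of the 10 cumulus markers in the same oocytes. Sik1 (11.9%), Junb (6.97%), Atf3 (4.64%), Egr1 (3.26%) and Zfp36 (1.84%) lay above it. Of these Atf3 had the lowest oocyte median, 1.56 CPM, so its share rests on few reads. Per kilobase Egr1 was the highest member in oocytes, at a median of 11.7 CPM per kilobase and 52.6 CPM. Nr4a1 had a count in 50 of 127 oocytes and a median of 0.

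**Figure D5:**
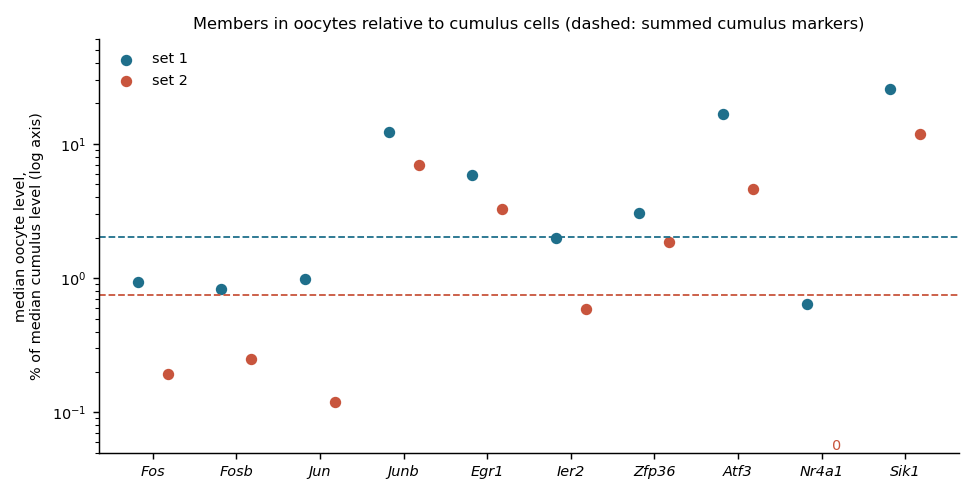
Median oocyte level as a percentage of the median cumulus level for the 10 genes in both sets, on a log axis, with dashed lines for the summed cumulus markers; Nr4a1 in the second set, at 0, is written at the foot. Fos, Fosb and Jun lie below the cumulus markers in both sets and Sik1, Junb and Atf3 lie above them.

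In the first set the oocyte share was 0.935% for Fos and 25.5% for Sik1, while that of the cumulus markers was 2.02%. Over the 73 oocytes of that set, the level of Jun had an r of 0.79 with the cumulus marker share, Ier2 0.76 and Fos 0.71, whereas Atf3 had 0.02 and Sik1 -0.10. In the second set, where the marker share was at most 1.54% in any oocyte, Fos had 0.53 and Sik1 -0.12. Oocyte and cumulus levels of Fos within a mouse had an r of 0.11 over 70 complexes of the first set and -0.16 over 127 of the second.

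No member passed in oocytes between 2 and 14 months, where edgeR called 1.14% of all genes, 3 members had an unadjusted p under 0.05 and DESeq2 called 0. With and without hyperovulation it called 0 members and 0.0299% of all genes, with 4 at an unadjusted p under 0.05 and 0 by DESeq2. Between middle and CR oocytes, Egr1 fell. It was at 41.4 to 107 CPM, median 61.2, in middle and 17.2 to 112 CPM, median 28.9, in CR oocytes, a log2 fold change of -0.83 ± 0.19 (SE; adjusted p = 0.00044 by edgeR), where 7583 of 25276 genes (30%) were called in either direction. Here 1 of 10 members was called, a smaller share than that of all genes. On counts summed per mouse the adjusted p of Egr1 was 0.0844. The cumulus marker share had a median of 2.21% in middle oocytes (0.593% to 18.0%) and 1.60% in CR oocytes (0.630% to 12.5%). Over all oocytes of the first set Egr1 had an r of 0.45 with that share, and its part in the result was not tested. In cumulus cells the estimate for Egr1 had the other sign, 0.78 ± 0.31 (adjusted p = 0.158 by edgeR), and the difference between both cell types was not tested. The other 9 members did not pass in oocytes, with estimates from -0.66 (Zfp36) to 0.33 (Junb). Without the mouse Middle2, CR1 or CR2, 2 members passed there. Between 2 and 14 months, 2 passed without the mouse 2mo35 and 1 without 2mo36.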

How the data were processed

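RamDA-seq had been applied to single oocytes and their cumulus cells, giving 146 libraries (first set) and 255 libraries (second set). Per the study's methods and the submitters' processing notes, the authors used Fastq-mcf for trimming, HISAT2 2.0.5 for alignment to GRCm38, and featureCounts 1.5.1 with a GENCODE annotation for counting. The deposited values are expected counts, since reads that map to several places were shared between genes, and of the nonzero counts 36.8% (first set) and 35.1% (second set) had a fractional part. They were rounded to whole numbers before testing, where plain counts had been planned for. The authors also deposited RPKM values, used here for gene lengths only. No pair of libraries agreed within sampling noise, and the complex of the mouse Middle3 whose oocyte library held cumulus cell transcripts was left out. Reads carry no molecular identifiers, so errors do not cover duplicated reads.

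Members and lists were chosen with earlier results of these data known. A gene entered a test when 5 or more of the libraries being compared held a count for it, and tests used edgeR 4.0.16 under R 4.3.3 (quasi-likelihood F test after TMM scaling) at a false discovery rate of 5%, on all genes, with DESeq2 1.42.0 as an alternative. Other alternatives were RLE normalization, no filter on low counts, counts summed per mouse, 1 fit for all groups, the B1 or B2 mark in the complex labels (taken as a plate, which the labels do not say), a replicate block and each mouse left out. The test was also run on simulated counts, and the outcome is not given here. Nothing is read from that run about complexes that share a mouse. Besides the members, the genes named are, per tested comparison, up to 3 called genes with the largest change in each direction from the pathway and heat-shock lists (mean of at least 10 CPM), and the 8 genes most like the members. Correlations used log2(CPM + 1). Cell type lists covered cumulus, oocyte, theca, luteal, leukocyte, endothelial, stromal and red blood cells.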

Additional observations from a re-analysis of the deposited data

How the results depend on the processing

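Outside the contrasts that chose the members, 8 calls were examined (Atf3 for 2 against 14 months, Egr1 for 4 against 14 months, Atf3 and Nr4a1 for hyperovulation, Junb, Ier2 and Zfp36 for middle against CR, and Egr1 in oocytes of middle against CR mice), and none of their log2 fold changes reversed under any alternative. Atf3 kept its call with hyperovulation in 21 of 21 alternatives and Nr4a1 in 20 of 21. For 2 against 14 months Atf3 kept it in 5 of 17, and for 4 against 14 months Egr1 in 17 of 20. For middle against CR, Junb kept it in 8 of 15, Ier2 in 9 of 15 and Zfp36 in 10 of 15, and Egr1 in oocytes in 13 of 14. The number of members called changed in these cases, and the cause was not tested. For 2 against 14 months it was 0 in place of 1 with RLE normalization, with every gene that had any count, with counts summed per mouse, with all groups in 1 fit and with the B1 or B2 mark (taken as a plate) as a covariate. For 4 against 14 months it was 0 in place of 1 per mouse and with all groups in 1 fit. For hyperovulation it was 1 per mouse, 4 with all groups in 1 fit, 5 with that mark and 5 without 2moNoH12 and 2moNoH13, chosen after seeing the data, in place of 2. For middle against CR it was 0 in place of 3 per mouse and with the left-out complex put back. For the contrasts that chose the members nothing is read from the counts, which were 0 in place of 9 per mouse for young against middle and 8 in place of 7 for young against old. In oocytes of middle against CR mice it was 0 per mouse and 7 with the left-out complex put back, in place of 1. Apart from the per-mouse shares stated above, the share of all genes called in these alternatives is not given. A change in the members alone cannot then be told apart from a change in all genes. The same holds for the fits with a mouse left out or a replicate block, below.

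With each mouse left out in turn, the number called ranged from 0 to 2 for 2 against 9 months, 0 to 1 for 2 against 14 months, 0 to 2 for 4 against 14 months, 2 to 4 for hyperovulation and 0 to 8 for middle against CR. In the contrasts that chose the members it ranged from 0 (without Middle2) to 10 for young against middle, with 1 without Young2, 2 without Middle4 and 5 without Young1, and from 0 (without Young2) to 6 for young against old, with 2 without Old1_2. In oocytes it ranged from 0 to 2 for 2 against 14 months and from 1 to 2 for middle against CR.

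Mouse and complex numbers recur between groups of the first set. The r of same-numbered samples was over 0.1 in 0 of 3 mouse pairs for middle against CR (median r -0.07). For complex pairs it was over 0.1 in 5 of 14 for young against middle (median -0.02) and 2 of 15 for middle against old (median 0.02). For young against old it was over 0.1 in 7 of 15 (median 0.04, highest 0.59). Whether same-numbered samples share more than a number was not tested. With a replicate block the number of members called was 0 for middle against CR, 10 for young against middle, 10 for young against old, 0 for middle against old and 1 in oocytes of middle against CR mice.

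The median r between members stayed between 0.786 and 0.835 in the first set and 0.667 and 0.745 in the second under other pseudocounts and centring. Few mice per group limit each test.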
